A study of Mus musculus with 24 samples.

Results

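The 33 genes described here are known from the epithelium of the choroid plexus. They were taken from a named list that was chosen with earlier results of these data known. Matched by symbol out of 24421 gene names in each table, all 33 had an entry. They were followed in 24 bulk RNA-seq libraries of fluorescence-sorted brain cells. Each of 4 regions (olfactory bulb, hippocampus, cortex and brainstem) and 2 genotypes had 3 libraries. The study asked how loss of NFIA, a member of the nuclear factor I transcription factors, alters adult astrocytes in each region.

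The libraries labelled knockout came from mice with the alleles NFIAfl/fl, Aldh1l1-CreER and Aldh1l1-GFP, in which the Aldh1l1 promoter drives a tamoxifen-inducible Cre recombinase in astrocytes. Controls carried NFIAfl/fl and Aldh1l1-GFP without the Cre. All mice were C57BL6 and 20 weeks old, and both genotypes carried the floxed Nfia allele and the green fluorescent reporter used for sorting. No label says whether the libraries of a group, or the regions, came from separate animals, so p-values measure only the spread between these libraries. Nfia reads were higher in every library labelled knockout than in every control of the same region, by 1.77-fold in olfactory bulb, 1.91-fold in hippocampus, 1.64-fold in cortex and 2.09-fold in brainstem. A count over the whole gene cannot separate deleted exons from the rest, and this check therefore did not bear out the label.

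The choroid plexus is a sheet of epithelium that hangs in the brain ventricles and secretes cerebrospinal fluid. It lies in the ventricles bordering the hippocampus and in those of the brainstem, while the olfactory bulb has none. Its cells move ions and water from blood to fluid, hold each other with tight junctions and release carrier proteins, of which transthyretin is the best known. The sort gate was for astrocytes, and astrocyte markers were abundant: the summed normalised reads of 15 of them lay between 480883 and 585846 in hippocampal libraries labelled knockout and between 319848 and 539362 in hippocampal controls.

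Values below are normalised reads: the reads recovered from the deposited values, divided by size factors computed over all 24 libraries. A gene was tested when it reached 20 in at least 3 libraries, which held for 32 of the 33 genes and 12759 genes in all. On mm10 the 33 genes lie on 14 chromosomes. The closest pair named here is Kcne2 (chr16:92292389-92298129) and Clic6 (chr16:92485736-92541243), while Prlr (chr15:10177238-10349180) and Enpp2 (chr15:54838901-54952892) lie far apart. The member that was not tested was Mfrp, which encodes a membrane protein related to the frizzled receptors. It had 0 of 169624032 reads over the 24 libraries, and a count of 0 leaves room for up to 3 reads in that total. C1qtnf5, which shares exons with Mfrp on the same strand, also had 0 reads, so how reads of this pair were assigned cannot be seen from the tables. Depth ranged from 9307505 to 24297573 reads in hippocampal libraries labelled knockout and from 5543804 to 14151670 in hippocampal controls. The shallowest library was brainstem labelled knockout 3, with 1090777 reads. Rn45s, the ribosomal RNA precursor, took 13.5% to 25.6% of the reads of brainstem libraries, 17.7% to 20.9% of cortical ones and 0.966% to 2.87% of hippocampal ones. In olfactory bulb it took 20.8% in the library labelled knockout 3 and 2.14% to 3.33% in the others.

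In hippocampus the list was far lower in the libraries labelled knockout. Its 33 genes took 0.119%, 0.209% and 0.0832% of all reads in libraries labelled knockout 1, 2 and 3, against 5.15%, 2.26% and 4.17% in controls 1, 2 and 3. The groups were well apart: the closest pair was knockout 2, with a 95% Wilson interval of 0.206% to 0.212%, and control 2, with 2.25% to 2.27%. These intervals cover counting error only. Transthyretin alone made up 42.4% to 52.2% of the reads of the list in the libraries labelled knockout and 55.5% to 57.6% in controls. In bulk libraries fewer cells of a type and less RNA per cell cannot be told apart.

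**Figure D1:**
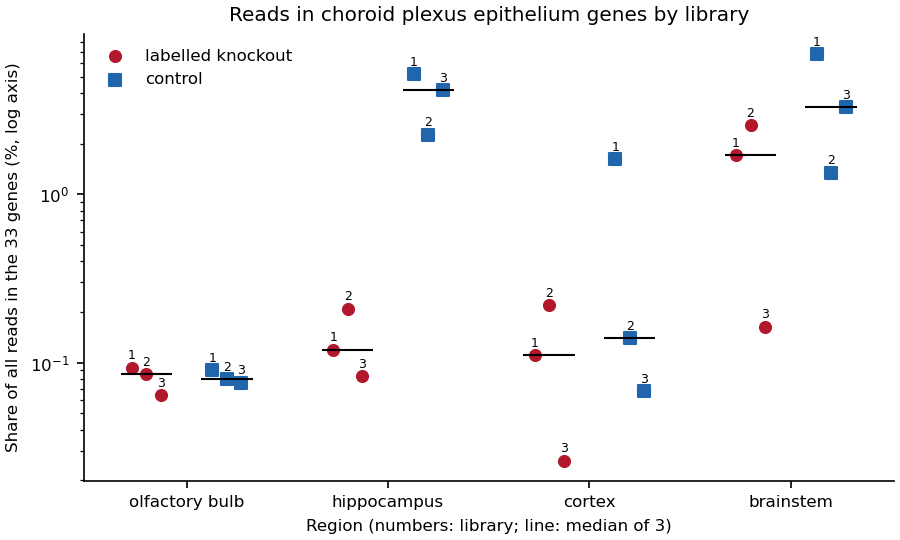
Share of all reads that fell in the 33 choroid plexus epithelium genes, in percent on a log axis, for each of the 24 libraries by region. Red circles are libraries labelled knockout, blue squares are controls, digits are library numbers and lines mark the median of 3. In hippocampus the 3 libraries labelled knockout lie between 0.0832% and 0.209% and the 3 controls between 2.26% and 5.15%, while in olfactory bulb all 6 lie between 0.0637% and 0.0930%.

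Gene by gene, every hippocampal library labelled knockout was below every hippocampal control for all 32 tested members, where 10.4% of all genes tested were separated in that direction. Limma called 18 of the 32 lower at an adjusted p under 0.05, against 1.67% of all genes tested. It called 0 higher, against 0.69% of all genes. Because the members were chosen with earlier results of these data known, these counts are no independent check. The other 14 members were also lower in the libraries labelled knockout but did not pass the adjusted threshold, with adjusted p from 0.0514 for Trpv4 to 0.166 for Lmx1a. All 32 had an unadjusted p under 0.05, as did 1704 of all 12759 genes. The log2 fold changes ran from -5.69 for Prlr to -1.45 for Col9a3, with a median of -4.08 against 0.000546 over all genes. The number called depended on single libraries: it was 7 without hippocampal control 1, 7 without hippocampal knockout 3, 11 without control 3 and 11 without knockout 1. In the same order, the number of all genes called lower fell from 213 to 56, 64, 131 and 135. Of the 18 called genes, 7 passed in each of the 6 fits that left out 1 hippocampal library, namely Lbp, Steap1, Slc4a5, Slc29a4, Rdh5, Sulf1 and Spint2.

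**Figure D2:**
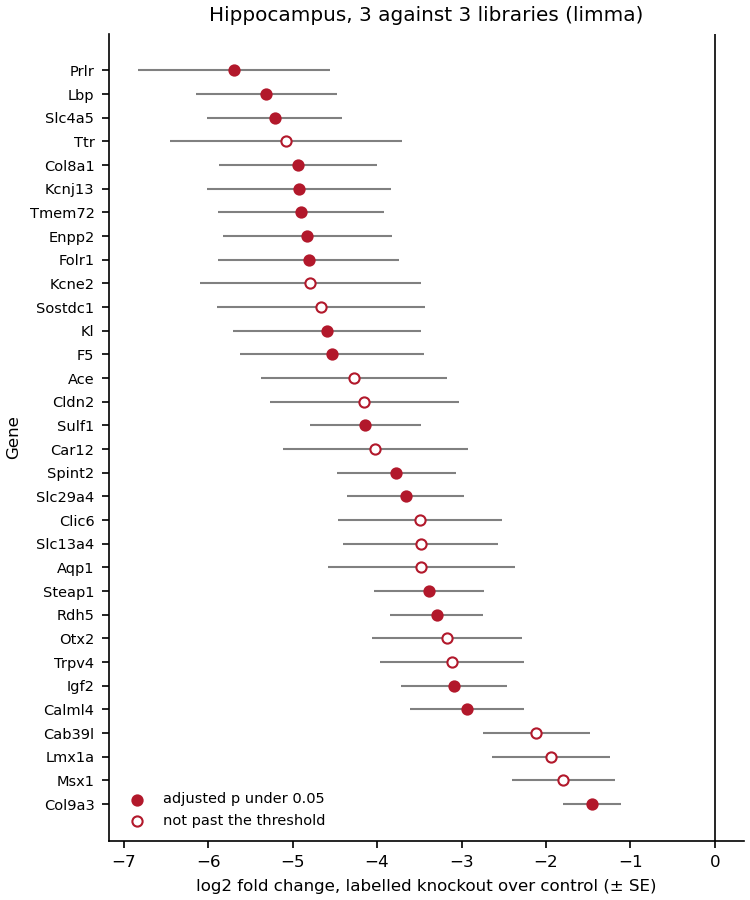
Log2 fold change of the 32 tested genes in hippocampus, libraries labelled knockout over controls, 3 against 3, with bars of 1 standard error. Filled circles passed an adjusted p of 0.05 in limma and open circles did not. Every point is below 0, from -5.69 for Prlr to -1.45 for Col9a3.

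Among the 7 secreted proteins, 5 fell and 2 did not pass the test, with a median log2 fold change of -4.66. Ttr encodes transthyretin, the carrier of thyroid hormone and retinol-binding protein in cerebrospinal fluid. It had 2571, 5636 and 2001 normalised reads in hippocampal libraries labelled knockout 1 to 3, against 134182, 66523 and 125866 in controls 1 to 3. The groups did not overlap, yet the fitted log2 fold change of -5.08 ± 1.37 (SE) had an adjusted p of 0.0647. The spread that this test uses is shared over all 8 groups, and Ttr also differed several-fold between libraries of 1 group in cortex and brainstem. Enpp2, which encodes autotaxin, an enzyme that makes lysophosphatidic acid, had 1782, 3151 and 1308 in the libraries labelled knockout and 74874, 34434 and 65420 in controls (log2 fold change -4.83 ± 0.996, adjusted p = 0.0168). Control 2 was the lowest control for both genes, and it still lay more than 10 times above the highest library labelled knockout.

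Kl, the gene of the hormone klotho, had 214, 193 and 86.0 in hippocampal libraries labelled knockout, against 5318, 2196 and 4774 in controls, and fell by 4.60 on the log2 scale (adjusted p = 0.0388). This call was among the least stable, since it was lost in each of the 6 fits without 1 hippocampal library. F5, coagulation factor V, behaved alike in that respect and had log2 fold change -4.53 (adjusted p = 0.0373). Lbp, which encodes a protein that binds bacterial lipopolysaccharide, had 14.2, 0.556 and 8.66 in the libraries labelled knockout, against 534, 331 and 496 in controls. Its log2 fold change of -5.31 ± 0.839 (adjusted p = 0.0020) passed in all 6 of those fits. Igf2, an insulin-like growth factor, fell by 3.09 (adjusted p = 0.0154). Sostdc1, a secreted antagonist of bone morphogenetic protein and Wnt signals, had a log2 fold change of -4.66 and did not pass (adjusted p = 0.0576).

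All 3 tested receptors and uptake proteins fell. Prlr, the prolactin receptor, had 61.8, 52.8 and 29.3 normalised reads in hippocampal libraries labelled knockout, against 3477, 1993 and 2636 in controls, the largest fitted change of the list (-5.69 ± 1.14, adjusted p = 0.0141). Folr1, the folate receptor through which the epithelium carries folate into the fluid, had 2, 38 and 0 reads in the libraries labelled knockout and 582, 154 and 748 in controls (log2 fold change -4.81, adjusted p = 0.0201). Steap1, of a family of metal reductases, had 3, 1 and 2 reads against 154, 43 and 103 (log2 fold change -3.38, adjusted p = 0.00388). At reads this few the constant of 5 added before the log sets much of the fitted change of Folr1 and Steap1. It also weighs on Lbp, with 68, 1 and 29 reads in the libraries labelled knockout, and on Spint2, with 17, 0 and 6. Col8a1 and Tmem72, each with 0 reads in knockout 3, are affected as well.

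Of 8 genes for ion, water and solute transport, 3 fell and 5 did not pass, with a median of -3.58. Kcnj13, a potassium channel of the apical membrane, had 32.2, 53.3 and 9.86 in hippocampal libraries labelled knockout and 1197, 571 and 1299 in controls (log2 fold change -4.93, adjusted p = 0.0239). Kcne2, a channel subunit, had 9.81, 22.2 and 6.57 against 657, 265 and 548, separated without overlap but with an adjusted p of 0.0668. Clic6, of the intracellular chloride channel family, had 195, 208 and 83.6 against 2337, 1123 and 2025 (adjusted p = 0.0727). The 2 transporters with the smallest p were Slc4a5, which carries sodium with bicarbonate, at -5.21 ± 0.802 (adjusted p = 0.00176), and Slc29a4, which takes up monoamines, at -3.66 ± 0.691 (adjusted p = 0.00447).

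The sulfate transporter gene Slc13a4 had a log2 fold change of -3.48 (adjusted p = 0.0572) and Trpv4, a cation channel that responds to osmolarity, of -3.12 (adjusted p = 0.0514). Aqp1, the water channel of the epithelium's apical face, had 6.47, 13.3 and 9.86 in libraries labelled knockout and 180, 90.8 and 237 in controls, with an adjusted p of 0.127. None of these 3 groups of values overlapped between the genotypes.

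Of 7 enzymes and regulators, 4 fell and 3 did not pass. The ones that fell were Rdh5, a retinol dehydrogenase (-3.29 ± 0.547, adjusted p = 0.00124, the smallest of the list), Sulf1, an extracellular sulfatase that trims heparan sulfate (-4.14 ± 0.658, adjusted p = 0.00286), Spint2, a serine protease inhibitor (-3.77 ± 0.707, adjusted p = 0.00345), and Calml4, a calmodulin-like protein (-2.94 ± 0.676, adjusted p = 0.0174). Rdh5 shares exon sequence on its own strand with Bloc1s1, and part of its reads may belong to that gene. Bloc1s1 itself had 143 to 223 normalised reads in hippocampal libraries labelled knockout and 202 to 324 in controls. Prlr and Igf2 also share exon sequence with a gene on their own strand, Gm21973 and Gm49394, which have no entry in the tables. Kcnj13, Cab39l, Col9a3, Igf2, Otx2, F5, Ace and Enpp2 share exon sequence with a gene of the opposite strand, and since the strand setting of the counting is not known, reads of such pairs cannot be told apart. Gigyf2, the partner of Kcnj13, had 206 to 289 in hippocampal libraries labelled knockout and 230 to 334 in controls, and Cdadc1, the partner of Cab39l, had 133 to 156 against 85.3 to 207.

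The 3 enzymes and regulators that did not pass were Cab39l, Ace and Car12. Cab39l, a regulator of the kinase LKB1, had 292, 411 and 258 in hippocampal libraries labelled knockout, against 1963, 914 and 1446 in controls (log2 fold change -2.11, adjusted p = 0.0995). Ace, the angiotensin-converting enzyme, had 37.2, 134 and 14.3 against 1427, 539 and 1061 (log2 fold change -4.28, adjusted p = 0.0521). Car12, a carbonic anhydrase, had 65.2, 38.9 and 42.7 against 1073, 552 and 1043 (log2 fold change -4.02, adjusted p = 0.0684). In each of the 3 the groups stood apart, and control 2 was the lowest control.

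Of 4 junction, matrix and membrane proteins, 3 fell. Cldn2, the claudin that makes the tight junctions of this epithelium leaky to cations, had 31.1, 13.9 and 7.17 in hippocampal libraries labelled knockout and 477, 210 and 444 in controls, and did not pass (adjusted p = 0.0613). Col8a1, a short-chain collagen, had 54, 18 and 0 reads against 825, 234 and 787 (log2 fold change -4.93, adjusted p = 0.00809). Col9a3, a collagen subunit best known from cartilage, had 70.6, 72.2 and 75.9 against 232, 147 and 263. Its log2 fold change of -1.45 ± 0.341 (adjusted p = 0.0189) was the smallest of the list, and the libraries labelled knockout were nearly level with each other. Tmem72, a membrane protein of little known function, fell by 4.90 (adjusted p = 0.0104).

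None of the 3 transcription factors passed. Otx2, a homeodomain factor needed for the choroid plexus to form and persist, had 67.2, 81.7 and 53.8 in hippocampal libraries labelled knockout and 844, 455 and 679 in controls (log2 fold change -3.17, adjusted p = 0.0770). Lmx1a, a LIM homeodomain factor of the dorsal midline, had 5.64, 8.89 and 0 against 41.9, 21.3 and 28.9 (log2 fold change -1.94, adjusted p = 0.166). Msx1, a homeodomain factor of the same midline territory, had 1.88, 7.22 and 3.29 against 36.8, 21.3 and 21.5 (log2 fold change -1.80, adjusted p = 0.127). Lmx1a and Msx1 were the 2 scarcest detected members per length in hippocampal controls, at 9.04 and 8.57 normalised reads per kilobase of exon, where Ttr reached 91785, Enpp2 10078 and Kcnj13 805.

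A second list held 30 other genes of this epithelium, likewise chosen with earlier results of these data known and therefore no independent check. Of its 27 tested members, 11 were lower in hippocampal libraries labelled knockout and 0 higher, against 1.67% and 0.69% of all genes tested, with a median log2 fold change of -1.83. Abca4, a lipid transporter, had 5.64, 52.2 and 7.17 against 514, 326 and 415 (log2 fold change -4.42, adjusted p = 0.0076). Cldn1, another claudin, changed by -3.93, Perp, a desmosome protein, by -2.94 and Slc2a12, a glucose transporter, by -2.86. The serotonin receptor gene Htr2c, a classical marker of the epithelium, had 51.6, 82.8 and 56.2 against 934, 368 and 832 and did not pass (adjusted p = 0.200). Not every gene of this list was lower: Slc15a2, a peptide transporter, had 1006, 1017 and 2469 against 402, 686 and 805, no overlap and a log2 fold change of 1.16 that did not pass (adjusted p = 0.0764). The log2 fold change was 0.52 for Hif3a, 0.10 for Bmp7, 0.05 for Ezr and -0.05 for Igfbp2, none of which passed.

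Of the markers of other cell types, those of the ciliated ependyma, which borders the plexus, were also lower in sum. Their summed level was 85.0 to 127 normalised reads in hippocampal libraries labelled knockout and 405 to 616 in controls, and 3 of 12 tested were lower (Foxj1, Rsph1 and Mia), where 1.67% of all genes were, with a median of -1.91. Of the fibroblast and meningeal markers 1 of 9 tested was lower (Fbln1). The summed fibroblast level was 269 to 513 in the libraries labelled knockout and 439 to 708 in controls. Among 15 astrocyte markers Aldh1l1 was higher (0.86, adjusted p = 0.0164) and Gfap lower (-1.69, adjusted p = 0.000181). Of the endothelial, mural, microglial, oligodendrocyte and neuronal markers 0 passed in hippocampus. Only 1 of the 5 erythrocyte markers, Alas2, was tested, and it did not pass. Hba-a1, Hba-a2, Hbb-bs and Hbb-bt had 0 reads in every library and could not be tested. The part of any of these cell types in the differences of the 33 genes was not tested.

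The promoters of the list were searched for short sequence patterns, because the members varied together and the floxed gene encodes a DNA-binding factor. RefSeq promoter windows on GRCm38.p6 were found for 25 of the 33 genes, and the 250 bases before the start were read on both strands. The single nuclear factor I site TTGGCA was present in 7 of the 25 genes, or 28% (Ace, Aqp1, Mfrp, Rdh5, Slc13a4, Spint2 and Tmem72), against 14.1% of 27025 genes. A gene counted when any of its windows held the site, and genes differ in their number of windows. Counted by window, the site was in 7 of 36 member windows, or 19.4%, against 12.3% of all 32851 windows. The full palindrome, TTGGC and GCCAA with 5 bases between them, was in 0 of the 25 and in 0.0444% of all genes. The core TAATCC, read by Otx factors, was in 3, or 12%, against 7.21% of all genes (8.33% against 6.25% by window). The homeodomain core TAATTA was in 1, or 4%, against 5.65% of all genes (5.56% against 4.84% by window). A match shows only that the letters are there. The windows of 2 genes that fell, Spint2 and Rdh5, and of 2 that did not pass, Aqp1 and Slc13a4, are shown to let the single site, in capitals (TGCCAA where it lies on the other strand), be seen in its surroundings. Each is printed 5′ to 3′ in the direction of its gene. The Spint2 window is chr7:29281978-29282227 (minus strand), that of Rdh5 is chr10:128919298-128919547 (minus strand, inside the annotated span of the gene), that of Aqp1 is chr6:55336049-55336298 (plus strand) and that of Slc13a4 is chr6:35308132-35308376 (minus strand). The 5 bases of the Slc13a4 window next to the RefSeq start are exonic in GENCODE and are not printed.
Spint2: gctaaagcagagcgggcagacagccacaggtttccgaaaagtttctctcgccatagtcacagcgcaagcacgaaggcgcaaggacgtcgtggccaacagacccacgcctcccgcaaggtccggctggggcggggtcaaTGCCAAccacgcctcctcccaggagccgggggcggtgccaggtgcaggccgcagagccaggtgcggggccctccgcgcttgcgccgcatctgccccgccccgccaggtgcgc
Rdh5: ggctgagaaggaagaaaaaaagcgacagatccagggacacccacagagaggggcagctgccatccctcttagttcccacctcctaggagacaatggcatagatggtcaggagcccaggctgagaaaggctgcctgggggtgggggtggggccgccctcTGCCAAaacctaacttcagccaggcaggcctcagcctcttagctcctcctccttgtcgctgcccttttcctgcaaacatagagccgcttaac
Aqp1: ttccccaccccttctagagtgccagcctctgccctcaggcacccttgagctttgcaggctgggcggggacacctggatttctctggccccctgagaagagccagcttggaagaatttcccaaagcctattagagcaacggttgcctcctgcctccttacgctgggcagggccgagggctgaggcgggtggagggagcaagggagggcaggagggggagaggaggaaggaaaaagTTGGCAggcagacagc
Slc13a4: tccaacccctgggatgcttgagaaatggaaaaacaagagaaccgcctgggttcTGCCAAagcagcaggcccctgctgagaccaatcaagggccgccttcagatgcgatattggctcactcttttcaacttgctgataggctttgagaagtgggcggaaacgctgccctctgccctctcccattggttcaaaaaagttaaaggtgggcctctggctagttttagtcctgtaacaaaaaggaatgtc
Counted from the RefSeq start, the single site begins 112 bases before it in Spint2, 92 in Rdh5, 16 in Aqp1 and 197 in Slc13a4.

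In the other 3 regions 0 members were called in either direction. The background was 0.0862% of all genes tested in olfactory bulb, 0.376% in cortex and 0.666% in brainstem. The median log2 fold change of the 32 genes was -0.11 in olfactory bulb, -1.28 in cortex and -1.64 in brainstem. An unadjusted p under 0.05 was reached by 1 member in olfactory bulb, 4 in cortex and 8 in brainstem, and by 650, 779 and 1888 of all genes. The test of the hippocampal effect against the mean effect of the other regions called 0 members and 0 of all 12759 genes (0%). Its estimate was negative for all 32 members, with a median of -2.95, and 27 members had an unadjusted p under 0.05, as did 778 of all genes. The mean of the other regions includes olfactory bulb, where 14 to 16 of the 32 members were below 5 normalised reads in each library. Such members could hardly fall there, so their negative sign was partly set in advance. The smallest adjusted p in limma was 0.142, for Sulf1. DESeq2 called 6 members in this contrast, where it called 36 of all 12752 genes negative and 5 positive. The median change was larger in hippocampus than in each other region, but in limma the difference between regions did not pass the adjusted threshold.

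**Figure D3:**
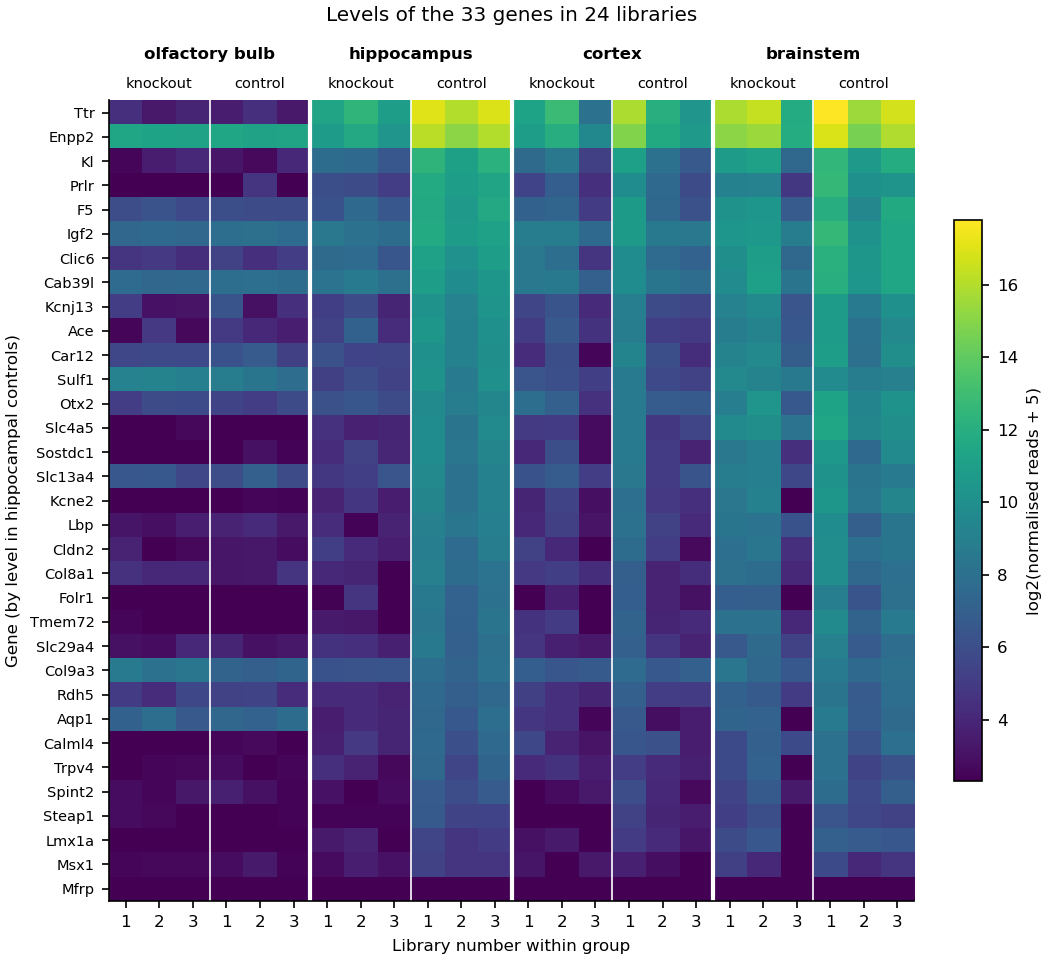
Levels of the 33 genes, as log2 of normalised reads plus 5 (colour scale), in the 24 libraries, with genes ordered by their level in hippocampal controls and libraries grouped by region and genotype, knockout-labelled left of control. Hippocampal and brainstem controls and the first cortical control are bright down the list, and in the olfactory bulb Ttr and many others are dark while genes such as Enpp2, Sulf1 and Aqp1 are not.

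In olfactory bulb the list was scarce and uneven. Ttr lay between 5.5 and 17.3 normalised reads in the libraries labelled knockout and between 5.5 and 16.9 in controls. Between 15 and 16 of the 32 detected members were below 5 normalised reads in each library labelled knockout, and 14 to 15 in each control. At least 5 in some library was reached by 20 members in libraries labelled knockout and by 22 in controls. Folr1 and Lmx1a had 0 reads in all 6 libraries. Enpp2 was the most abundant member there, with 2888, 2512 and 2392 in libraries labelled knockout and 2785, 2343 and 2584 in controls. Those levels lie within the range of the hippocampal libraries labelled knockout, in a region where Ttr was almost undetected.

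Other members were present in olfactory bulb too. Aqp1 had 132, 235 and 96.2 in libraries labelled knockout and 164, 138 and 212 in controls, overlapping groups that lay near the hippocampal control levels of 90.8 to 237. Slc13a4, Car12, F5, Otx2, Kcnj13, Rdh5 and Clic6 averaged between 12.2 and 73.3 in libraries labelled knockout and between 27.3 and 78.8 in controls. The genotypes did not overlap for 4 members. Igf2 had 165, 193 and 164 in libraries labelled knockout and 232, 256 and 203 in controls, and Cab39l had 210, 164 and 182 against 230, 241 and 216. These were the 2 of 32 members with every library labelled knockout below every control, where 6.92% of all genes were so. Sulf1, with 571, 603 and 515 against 469, 319 and 229, and Col9a3, with 413, 267 and 333 against 145, 123 and 154, were the 2 with every library labelled knockout above, where 7.15% of all genes were so. Both counts are near the share of all genes and are no result about the members. For these 2 the order was the reverse of that in hippocampus. Limma gave Col9a3 a log2 fold change of 1.22 ± 0.341 (adjusted p = 0.273) with the spread of all 24 libraries, and a fit of the olfactory bulb libraries alone called it (adjusted p = 0.00642). Sulf1 changed by 0.78 ± 0.658 (adjusted p = 1.00). The direct difference between hippocampus and olfactory bulb was not tested.

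In cortex 1 library carried most of the signal. The list took 0.110%, 0.219% and 0.0262% of reads in cortical libraries labelled knockout and 1.61%, 0.140% and 0.0678% in controls, so that control 1 stood 23.7 times above control 3. Cortical control 1 was the highest of the 3 controls for all 32 detected members. Ttr had 2471, 7275 and 275 in the libraries labelled knockout and 60874, 4216 and 1335 in controls, with overlapping groups. Steap1 was the only 1 of the 32 members with every cortical library labelled knockout below every control, at 0, 0 and 0 against 34.6, 10.1 and 6.2, where 7.48% of all genes were separated in that direction. Limma did not call it (adjusted p = 0.387), while edgeR with TMM factors (adjusted p = 0.0453) and DESeq2 (adjusted p = 0.00365) did.

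In brainstem controls the list took a mean of 3.81% ± 2.76 of reads, close to the 3.86% ± 1.47 of hippocampal controls (SD, n = 3 each), and its highest library stood 5.06 times above its lowest, against 2.28 times. Its share of reads was 1.71%, 2.57% and 0.163% in libraries labelled knockout and 6.80%, 1.34% and 3.29% in controls. All these shares count Rn45s, which took more of the reads in brainstem than in hippocampus. Without Rn45s the list took 9.15%, 1.64% and 4.36% in brainstem controls 1 to 3. In hippocampal controls 1 to 3 it then took 5.28%, 2.28% and 4.23%. The closeness of the 2 means thus holds only with Rn45s counted. Ttr had 59954, 87156 and 3665 in the libraries labelled knockout and 224646, 46844 and 110235 in controls. The groups overlapped, since knockouts 1 and 2 were above control 2, and the low library was knockout 3, also the shallowest. Prlr was the exception among the 32 members, with 559, 562 and 22.9 in the libraries labelled knockout against 6221, 1087 and 1284 in controls and no overlap, where 5.65% of all genes were separated in that direction. Its log2 fold change of -3.31 ± 1.14 did not pass (adjusted p = 0.189). Without knockout 3 the brainstem calls stayed at 0.

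**Figure D4:**
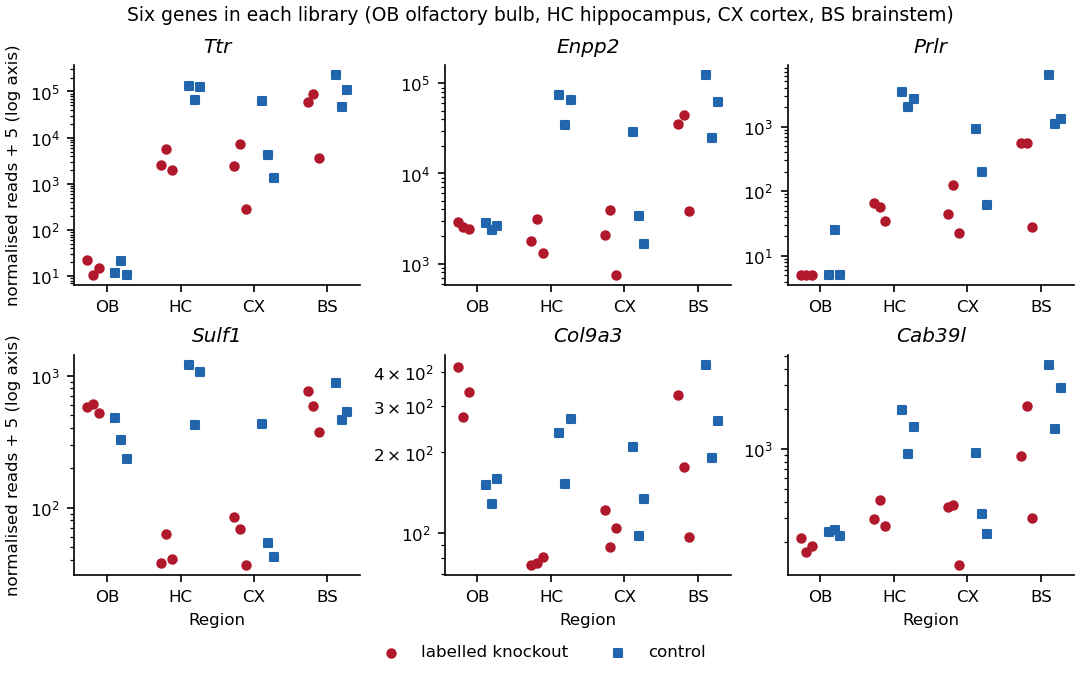
Normalised reads plus 5, on log axes, of Ttr, Enpp2, Prlr, Sulf1, Col9a3 and Cab39l in each library, by region (OB olfactory bulb, HC hippocampus, CX cortex, BS brainstem). Red circles are libraries labelled knockout and blue squares controls. All 6 genes separate in HC, Enpp2, Sulf1, Col9a3 and Cab39l remain present in OB where Ttr is near the floor, and Sulf1 and Col9a3 are higher in OB libraries labelled knockout than in OB controls.

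The members varied together from library to library, also within a genotype. In hippocampal controls 27 of 32 members had the order control 1 above control 3 above control 2. In brainstem controls 30 of 32 had that same order of numbers, and in cortical controls 26 of 32 had control 1 above 2 above 3. In brainstem libraries labelled knockout 24 of 32 had knockout 2 above 1 above 3. The same order held for 20 of the 31 cortical members with a value of at least 5 in some library labelled knockout. Brainstem knockout 3 was the lowest of its group for 31 of 32 members. It was also the shallowest library, at 1090777 reads, and 7 detected members had 0 reads in it. The commonest order of the numbers was thus shared by hippocampal and brainstem controls, and by hippocampal, cortical and brainstem libraries labelled knockout. Whether libraries of the same number came from the same animals is not in the labels, and the tests between regions treat all libraries as independent. The agreement was weaker where the list was scarce: in hippocampal libraries labelled knockout the commonest order held for 11 of the 30 members with a value of at least 5, and in olfactory bulb for 6 of 20 in libraries labelled knockout and 9 of 22 in controls. Over all 24 libraries, brainstem control 1 was the highest for 30 of the 32 members. Hippocampal control 1 was the highest for the other 2, Sulf1 and Steap1. No share over all genes was computed for these orders.

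Because Ttr is the most abundant member, the other 31 were also expressed relative to it, over the 18 libraries outside olfactory bulb. The SD of the log2 ratio to Ttr was smaller than the SD of the log2 level for 25 of the 31, with medians of 1.16 and 2.09. The slope of log2 level on log2 Ttr ran from 0.22 for Col9a3 to 0.88 for Kcne2, with a median of 0.69, and 9 members were above 0.8. The steepest were Kcne2 and Prlr at 0.88 and Sostdc1 and Slc4a5 at 0.87. The SD of the ratio was smallest for Sostdc1 (0.539), Enpp2 (0.615) and Kl (0.650). Col9a3 and Msx1 (0.31) were the 2 members below 0.4. The slopes are descriptions: the libraries share regions and differ in depth, and members near 0 reads flatten the slope.

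The makeup of the list was similar in the 2 regions where it was abundant. Ttr made up 55.2% to 55.9% of its reads in brainstem controls and 55.5% to 57.6% in hippocampal controls. Enpp2 stood at 54.8%, 53.5% and 56.6% of the Ttr level in brainstem controls and 55.8%, 51.8% and 52.0% in hippocampal controls. Relative to Ttr, 8 of the 31 members were higher in every brainstem control than in every hippocampal control, where 2.25% of all genes tested were so, and 0 were lower in every one, where 1.6% were so. The 8 were Slc4a5, Kcne2, Clic6, Cab39l, Spint2, Tmem72, Otx2 and Lmx1a, a group seen only after the values were examined. The other 23 overlapped between the regions. Unlike the member ratios, the shares over all genes were taken with 5 added to both levels. Ttr itself overlapped, at 46844 to 224646 in brainstem controls and 66523 to 134182 in hippocampal controls. A gene that does not follow Ttr could therefore hardly separate in this ratio. The 2.25% is thus no yardstick for the 8 members, and whether they exceed it was not tested.

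Lmx1a differed most in this ratio. It stood at 0.0578%, 0.220% and 0.0797% of Ttr in brainstem controls and 0.0312%, 0.0320% and 0.0230% in hippocampal controls, a difference of 1.66 in mean log2 ratio, taken with 5 added to both levels. Slc4a5 stood at 1.203%, 1.44% and 0.898% against 0.680%, 0.461% and 0.641% (a difference of 0.98), and Otx2 at 1.10%, 1.31% and 1.13% against 0.629%, 0.684% and 0.539% (0.93). Cab39l differed by 0.88. The lowest brainstem value was above the highest hippocampal value in each, but with 3 libraries a region, no test was made of these ratios. Rn45s also differed between these regions, and its part was not tested.

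**Figure D5:**
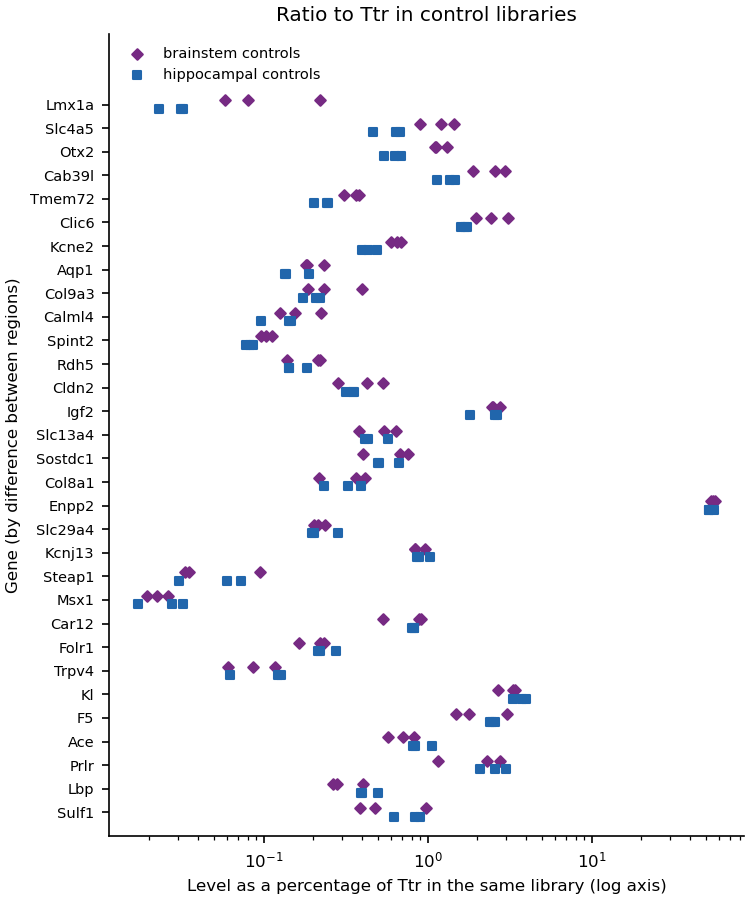
Level of each of 31 genes as a percentage of the Ttr level in the same library, on a log axis, in 3 brainstem controls (purple diamonds) and 3 hippocampal controls (blue squares), ordered by the difference between regions. Lmx1a, Slc4a5, Otx2 and Cab39l lead, with diamonds to the right of all squares, and most other genes overlap.

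Among control libraries, hippocampus was above the mean of the other 3 regions on the log2 scale for all 32 members, and 7 passed, against 1.18% of all genes tested. They were Ttr (5.58 ± 1.12, adjusted p = 0.00932), Slc4a5 (2.95 ± 0.655, adjusted p = 0.0154), Slc29a4 (2.40, adjusted p = 0.0162), Kl (4.03, adjusted p = 0.0207), Prlr (4.07, adjusted p = 0.0222), Lbp (2.78, adjusted p = 0.0290) and Calml4 (1.98, adjusted p = 0.0481). The mean of the other regions is a mean of log2 values that includes the low olfactory bulb, and the level was not particular to hippocampus. Lmx1a averaged 30.7 normalised reads in hippocampal controls, against 107 in brainstem, 15.5 in cortical and 0 in olfactory bulb controls. Ttr averaged 108857 normalised reads in hippocampal and 127241 in brainstem controls, Slc4a5 676 and 1456, Prlr 2702 and 2864, and Kl 4096 and 3796. This comparison shares the hippocampal controls with the genotype comparison above. Its calls among members fell to 0 without hippocampal control 1 or 3 and reached 21 without cortical control 1. In the same order, 90, 98 and 189 of all genes were higher, against 150 in the main fit.

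Among libraries labelled knockout, hippocampus showed no such excess. Against the mean of the other 3 regions labelled knockout, 0 members were higher (2.33% of all genes were) and 2 were lower (2.97% of all genes were). The 2 were Col9a3 (-1.24 ± 0.279, adjusted p = 0.00633) and Sulf1 (-2.52 ± 0.537, adjusted p = 0.00848). Both had at least 267 normalised reads in every olfactory bulb library labelled knockout. Of the 32 members 5 had an unadjusted p under 0.05 in this contrast, as did 2043 of all genes, and edgeR and DESeq2 also called 0 higher. The median over the 32 members was -0.45. In the levels themselves, Ttr was 2001 to 5636 in hippocampal, 275 to 7275 in cortical and 3665 to 87156 in brainstem libraries labelled knockout, so the hippocampal libraries labelled knockout lay within the range of the cortical ones.

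Outside the list, the genes whose centred log2 profile over the 24 libraries lay closest to the mean profile of the members were named as a description. With a mean CPM of at least 5, the 10 closest of 10390 genes were Epn3, Strip2, Rbm47, Wdr72, Cldn1, Drc7, Tc2n, Atp2b3, Wdr86 and Zfp185. The root mean square difference was 0.502 for Epn3 and 0.692 for Zfp185, against a median of 2.09 over all genes. Of the 30 closest genes, 13 were members themselves. Epn3, an epsin of endocytosis, had 19.6, 7.78 and 13.1 in hippocampal libraries labelled knockout and 242, 100 and 136 in controls. Rbm47 and Cldn1 also stood on the second list of the epithelium.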

How the data were processed

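Bulk RNA-seq libraries, 24 in all, were made from 5 ng of total RNA per the labels' protocols. For each library the authors deposited a table of normalised signal with 1 value per gene name. FastQC, STAR 2.5.0a, DESeq2 1.20.0 and the build mm10 are named in the submitters' processing notes without roles, and the counting tool, annotation and strand setting are not given in the sources used here. Each deposited signal value was a whole number of reads, within 0.01, divided by 1 factor per library, so reads were recovered and rescaled by median-of-ratios size factors over the 24 libraries (11534 genes above 0 in all). The deposited cortical values were 0.788 to 0.794 times this joint scale and the others 1.00 to 1.01 times. Date-like strings stood in place of 27 gene names, and 2 names occurred more than once. Mitochondrially encoded genes are not analysed here.

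The linear model in limma 3.58.1, run in R 4.3.3, took log2 of the joint value plus 5, with 8 group means, an intensity trend and robust moderation, on the 12759 genes that reached 20 in 3 or more libraries, with 16 residual degrees of freedom. Tests were two-sided, with Benjamini-Hochberg adjustment over all tested genes of a contrast and a threshold of 0.05. Adding 5 lowers the fold changes of scarce genes. An edgeR quasi-likelihood test had been planned for raw counts; since the values are normalised, edgeR 4.0.16 and DESeq2 1.42.0 served as alternatives on recovered reads. The code was tested on simulated data. Gene positions and exonic lengths came from GENCODE vM21 on mm10, in which 23350 names matched.

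The members and marker lists were chosen with earlier results of these data known. All members are named. Values per hippocampal library are given for up to 3 members of a role group, those with the most reads per kilobase in hippocampal controls, for each transcription factor, and for further members chosen after their values were seen. Outside the list the 10 genes most alike in profile were named, and of each marker list up to 4 genes that passed.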

Additional observations from a re-analysis of the deposited data

Results flagged for a closer look

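The genotypes were separated in opposite directions in 2 regions for Sulf1 and Col9a3. Every olfactory bulb library labelled knockout was above every olfactory bulb control for both genes, with log2 fold changes of 0.78 for Sulf1 (limma adjusted p = 1.00) and 1.22 for Col9a3 (limma adjusted p = 0.273), neither of which passed. These were 2 of 32 members, near the 7.15% of all genes so separated. Every hippocampal library labelled knockout was below every hippocampal control, with log2 fold changes of -4.14 for Sulf1 and -1.45 for Col9a3. The difference between these 2 regions was not tested. Hippocampus against the mean of the other 3 regions gave -4.12 for Sulf1 (limma adjusted p = 0.142) and -1.50 for Col9a3 (limma adjusted p = 0.285).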

How the results depend on the processing

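No member changed the sign of its hippocampal log2 fold change in any of 34 other settings. Of 1087 values of single members, 926 kept their side of the threshold, 111 passed where they had not, and 50 no longer passed. The count of members lower in hippocampal libraries labelled knockout, 18, was 29 with DESeq2, 30 with edgeR using TMM factors and 30 with RLE factors. It was 29 with hippocampal libraries alone, which use the spread of that region only. These settings also called more of all genes lower. The number was 213 of 12759 in the main fit and 434 of 12752 with DESeq2. It was 267 of 12759 with TMM factors, 280 of 12759 with RLE factors and 311 of 12741 with hippocampal libraries alone. The member count ranged from 7 to 30 with 1 library left out. It was 30 without brainstem knockout 3, where 281 of all genes were lower. DESeq2 lost Folr1 among the 18, and both edgeR fits called all 18. Members higher in hippocampal libraries labelled knockout numbered 0 throughout, with edgeR and DESeq2 too. Members changed in the other regions, 0, became 1 with DESeq2 and with both edgeR fits (Steap1 in cortex), and 1 with single regions (Col9a3 in olfactory bulb). Of all genes, 60 were lower in cortex with DESeq2, 20 with TMM factors and 21 with RLE factors. The fit of olfactory bulb alone called 44 of all genes higher. The number of members stayed at 0 with each library left out.

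Members whose hippocampal effect differed from the other regions, 0, numbered 6 with DESeq2 and 1 with edgeR using TMM or RLE factors (Sulf1). Of all genes, DESeq2 called 36 negative and 5 positive, and each edgeR fit 2 negative and 1 positive. With a library left out the members numbered 0 to 4. Without cortical control 1 they were 4 (Sulf1, Slc4a5, Lbp and Col8a1), with 15 negative and 1 positive of all genes. Without brainstem knockout 3 there was 1 (Col8a1), with 2 of all genes negative. Members higher in control hippocampus, 7, numbered 17 with DESeq2 and 21 with edgeR using TMM or RLE factors. The number of all genes higher was 150 in the main fit, 279 with DESeq2 and 232 with each edgeR fit. With a library left out the members numbered 0 to 21. They were 13 without brainstem control 1, 16 without brainstem knockout 3 and 4 without hippocampal control 2. In the same order, 230, 195 and 80 of all genes were higher. Members that differed among libraries labelled knockout, 2, ranged from 1 to 5, with 5 without brainstem knockout 3 and 1 without hippocampal knockout 1 or 3. Of all genes, 326 were higher and 396 lower without brainstem knockout 3. Without hippocampal knockout 1 the numbers were 182 and 261, and without hippocampal knockout 3 they were 156 and 169. The cause of these moves was not tested.

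Replicate numbers are shared between genotypes. Of 12 pairs of same-numbered libraries, 5 had deviations correlated above 0.1 (range -0.115 to 0.32), and 15 of 24 libraries correlated best with their own number. In hippocampus the same-numbered pairs had correlations of 0.27, 0.04 and 0.32. Hippocampal pairs with different numbers ran from -0.29 to 0.032. With the replicate number as a block, 27 members were lower in hippocampus, 2 differed from the other regions (Sulf1 and Slc4a5) and 17 were higher in control hippocampus. Of all genes, that fit called 264 lower in hippocampus and 180 higher in control hippocampus. In the difference from the other regions it called 9 negative and 1 positive. Between regions, same-numbered libraries of 1 genotype correlated above 0.1 in 2 of 18 pairs labelled knockout (-0.115 to 0.14) and 8 of 18 control pairs (-0.195 to 0.321). With the number within each genotype as a block, an alternative chosen after seeing the data, 5 members differed from the other regions (Sulf1, Slc4a5, Ace, Col8a1 and Tmem72), 21 were higher in control hippocampus and 2 differed among libraries labelled knockout. Of all genes, 19 were negative and 1 positive in the difference from the other regions, and 225 were higher in control hippocampus. Among libraries labelled knockout, 348 of all genes were higher in hippocampus and 424 lower. Members such as Steap1, Folr1, Spint2, Lmx1a, Lbp, Col8a1 and Tmem72 had few or 0 reads in some hippocampal libraries labelled knockout. These libraries were deeper than the controls on average.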

Other observations

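In the second choroid plexus list, 3 of 27 tested genes were lower in hippocampal than in the other libraries labelled knockout, where 2.97% of all genes were. They were Trpm3, Igfbp2 and Bmp7. A further 3 of the 27 tested members of this list, Slc12a2, Abca4 and Slc2a12, were higher in control hippocampus than in the mean of the other 3 control regions, where 1.18% of all genes were. The summed level of this list was 12659 to 18337 normalised reads in hippocampal controls and 18249 to 35722 in brainstem controls. In brainstem 1 of its 27 tested members, Tjp3, a tight junction scaffold, was lower in libraries labelled knockout, where 0.666% of all genes changed in either direction. Slc12a2, the sodium-potassium-chloride cotransporter, had 458, 494 and 420 normalised reads in hippocampal libraries labelled knockout and 1351, 996 and 1046 in controls (log2 fold change -1.29, limma adjusted p = 0.00806).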
